A study of Mus musculus with 8 samples.

Results

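Mitochondrially encoded genes are the genes carried by the circular DNA of the mitochondrion rather than by the chromosomes of the nucleus. They were taken here as the entries whose name begins with mt-, which gave 37 of the 54087 genes counted: 13 mRNAs, 2 ribosomal RNAs and 22 transfer RNAs. RNA-seq was made from whole testes of C57BL/6 male mice whose genotype is given as Dnmt3A KO/KO (KO) or Dnmt3A WT/WT (WT), at 25 or 19 days post partum (dpp). Each of the 4 groups, KO and WT at 25 dpp and KO and WT at 19 dpp, had 2 libraries, and the study compared the genotypes at both ages. Dnmt3a encodes an enzyme of de novo DNA methylation. Which part of Dnmt3a the KO allele lacks, how it was made, whether it was removed in all cells and whether a library came from 1 animal or from a pool are not stated in the labels.

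The mitochondrial genome encodes subunits of complex I (mt-Nd genes), complex III (mt-Cytb), complex IV (mt-Co genes) and the ATP synthase (mt-Atp6 and mt-Atp8), together with the rRNAs and tRNAs that translate them inside the organelle. Most of the subunits of these complexes, and every protein that copies, transcribes or translates mitochondrial DNA, come from nuclear genes. Both strands are transcribed as long precursors that are cut into the separate RNAs, the tRNAs lying between the mRNAs as cutting points. The heavy-strand precursors hold both rRNAs and all mRNAs except mt-Nd6, which comes from the light strand. The male germ line is known for changing its mitochondria as it passes from spermatogonia through meiosis to spermatids, with testis forms of several nuclear-encoded subunits.

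What can be counted for these genes depends on copies of mitochondrial DNA in the nuclear genome. In the GENCODE M21 annotation (GRCm38, the same assembly as mm10), 6 mRNAs had their best match outside the mitochondrial genome in a stretch of chromosome 1 between 24611535 and 24615565, at 99.71% identity or more. The sequences below, all from GENCODE M21 transcripts on GRCm38, show the start of a gene with an identical copy (mt-Co2, chrM:7013-7102, plus strand, and Gm28661, chr1:24615476-24615565, minus strand). They show next a gene with a near-identical copy (mt-Nd3, chrM:9459-9519, plus strand, and Gm28438, chr1:24613059-24613119, minus strand), where the capital marks the substitution T3C. The third pair is a gene with a diverged copy (mt-Cytb, chrM:14145-14264, plus strand, and Gm11410, chr4:80003989-80004108, plus strand), where capitals mark 8 substitutions, A1G, G14A, C24T, C61T, T66C, C78T, T108C and G115A. Positions count from 1 at the 5′ end of the mitochondrial gene, with its base first and the copy's base last.
mt-Co2: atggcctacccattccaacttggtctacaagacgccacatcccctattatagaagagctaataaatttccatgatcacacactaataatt
Gm28661: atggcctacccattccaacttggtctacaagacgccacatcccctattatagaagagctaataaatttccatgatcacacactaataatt
mt-Nd3: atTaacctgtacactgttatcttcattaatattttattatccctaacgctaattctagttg
Gm28438: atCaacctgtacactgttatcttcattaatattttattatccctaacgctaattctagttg
mt-Cytb: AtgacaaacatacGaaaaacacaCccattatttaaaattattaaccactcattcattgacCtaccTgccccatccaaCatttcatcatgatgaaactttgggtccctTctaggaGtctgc
Gm11410: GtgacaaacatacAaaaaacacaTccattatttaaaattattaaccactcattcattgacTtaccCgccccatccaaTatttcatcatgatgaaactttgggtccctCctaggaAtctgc

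Mitochondrial genes also overlap each other, and mt-Atp8 is the clearest case. The whole gene (chrM:7766-7969, plus strand, 204 bases) is printed here because its last 43 bases, in capitals, are also the first 43 bases of mt-Atp6, so a read from there belongs to both genes.
mt-Atp8: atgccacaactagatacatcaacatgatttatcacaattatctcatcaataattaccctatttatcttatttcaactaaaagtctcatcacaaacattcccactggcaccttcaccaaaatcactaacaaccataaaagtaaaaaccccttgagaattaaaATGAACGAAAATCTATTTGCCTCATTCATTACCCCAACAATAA

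Each mRNA and rRNA was cut into all of its 50-base windows, and each window was looked for in the annotated transcripts of other genes. For mt-Co2, mt-Co3, mt-Atp6, mt-Nd4l and mt-Nd3, 100%, 99.9%, 99.5%, 98.8% and 98.0% of windows were found elsewhere. For mt-Nd4 and mt-Co1 the share was 62.2% and 51.1%, and for mt-Nd2, mt-Nd5 and mt-Rnr2 it was 8.2%, 7.6% and 1.0%. No window of mt-Rnr1, mt-Nd1, mt-Nd6, mt-Cytb or mt-Atp8 was found in another annotated transcript. Over the 8 libraries mt-Co2 had 382 counts, mt-Co3 had 362, mt-Atp6 had 333 and mt-Atp8 had 86, against 2895887 for mt-Co1 and 877894 for mt-Cytb. Yet mt-Nd4l had 152233 counts and mt-Nd3 had 90577, although nearly all of their windows have a copy. The low counts therefore do not follow the shared windows gene by gene, and what sets them was not tested. The bases between Gm10925 and Gm28661, the copies of mt-Atp6 and mt-Co2, number 233. Whether an annotated transcript covers them was not looked up. The search took in annotated transcripts only, so it could not see a copy of mt-Atp8 outside them. The level of these 4 mRNAs is accordingly a level of counted reads, and the handling of reads with several alignments is not given in the sources used here.

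**Figure D1:**
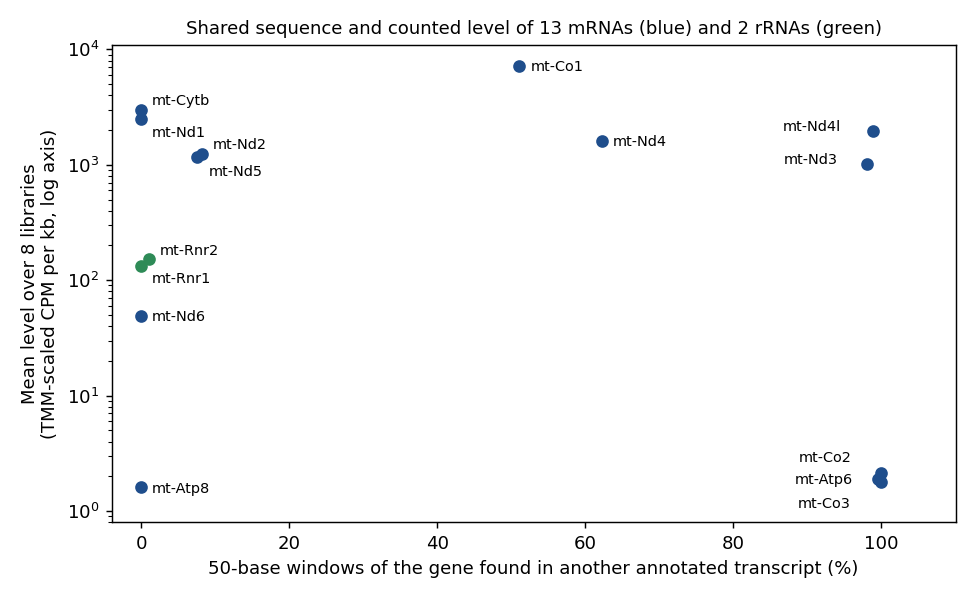
Mean level of each mitochondrial mRNA (blue) and rRNA (green) over the 8 libraries, in TMM-scaled CPM (counts relative to the scaled total of gene counts in the library) per kb on a log axis, against the percentage of its 50-base windows found in another annotated transcript. mt-Co2, mt-Atp6 and mt-Co3 lie at the bottom right and mt-Atp8 at the bottom left, while mt-Nd4l and mt-Nd3 share 98.8% and 98.0% of their windows and still lie near the level of mt-Nd4.

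Levels are given as CPM after scaling by the trimmed mean of M values (TMM), and between genes only per kb of gene length. Per kb, mt-Co1, the catalytic subunit of complex IV, had the highest mean over the 8 libraries at 7210 CPM per kb, with a range of 5001 to 9103. mt-Cytb, the mitochondrial subunit of complex III, followed at 2972 CPM per kb and mt-Nd1 at 2498, with ranges of 2098 to 4124 and 1769 to 3194 that overlap. The complex I subunits mt-Nd4l (1972), mt-Nd4 (1621), mt-Nd2 (1229), mt-Nd5 (1157) and mt-Nd3 (1011) came next in CPM per kb, and each neighbour in this order overlapped the next in range. Both rRNAs, mt-Rnr2 of the large and mt-Rnr1 of the small mitochondrial ribosomal subunit, stood at 154 and 132 CPM per kb, also overlapping. They lay below 8 of the 13 mRNAs and above the other 5. The labels give an mRNA kit, and its part in the rRNA level was not tested. mt-Nd6, the light-strand complex I subunit, stood at 49.3 CPM per kb with a range of 37.2 to 61.4, below every rRNA value. mt-Co2 (2.13), mt-Atp6 (1.90), mt-Co3 (1.77) and mt-Atp8 (1.60) were lowest in CPM per kb, for the reads that were counted.

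**Figure D2:**
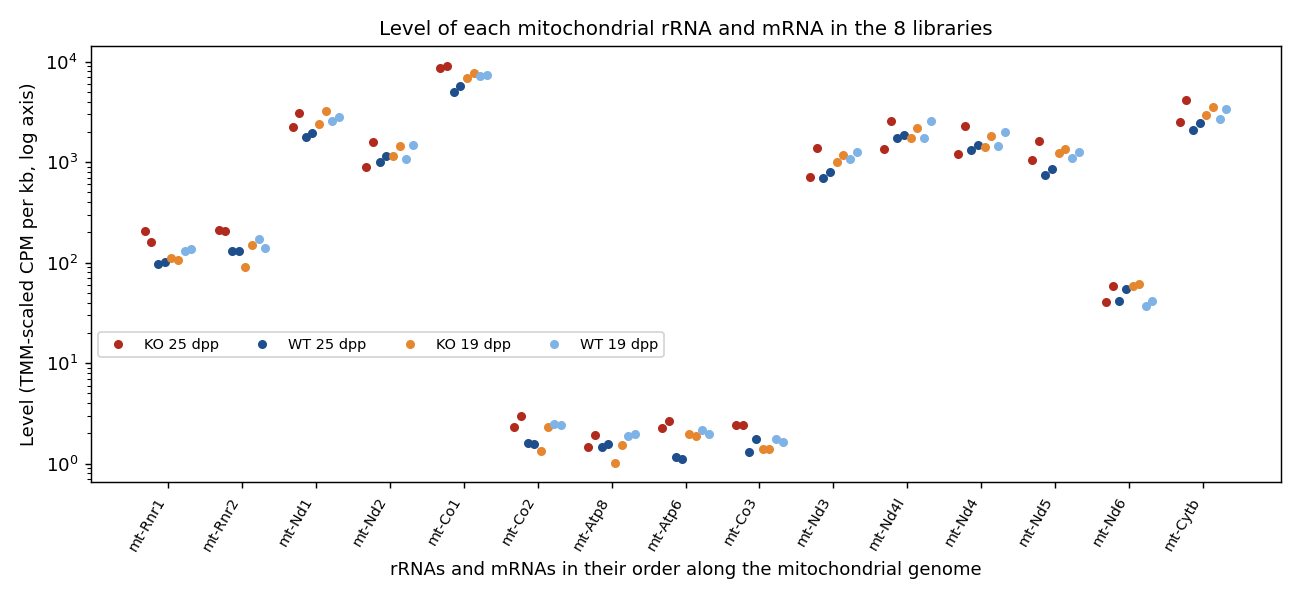
Level of the 2 rRNAs and 13 mRNAs in each of the 8 libraries, in TMM-scaled CPM per kb on a log axis, ordered as they lie along the mitochondrial genome. Points of one gene are the libraries, coloured by group from KO at 25 dpp on the left to WT at 19 dpp on the right. Differences between genes, from 7210 CPM per kb for mt-Co1 to 1.60 for mt-Atp8, are far wider than those between libraries of one gene.

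The 22 tRNAs, which are short and lack long poly(A) tails, gave 1468 counts over all 8 libraries, between 132 and 217 in a library. The 14 annotated on the plus strand, that of the heavy-strand transcripts, held 1435 of these and the 8 on the minus strand held 33. No count at all was recorded for 6 of them (mt-Tf, mt-Ta, mt-Tn, mt-Td, mt-Tk and mt-Ts2), where the floor of 3 counts corresponds to between 0.0811 and 0.126 CPM in a library. The largest sums were 549 counts for mt-Tl1, which lies between mt-Rnr2 and mt-Nd1, 335 for mt-Tw and 313 for mt-Tm, which lie on either side of mt-Nd2. With mt-Tt and mt-Ti, named after their values were seen, these made 5 tRNAs that passed the filter on low counts. Together with all 13 mRNAs and both rRNAs, 20 of the 37 genes were tested and 17 tRNAs were not. Every tRNA that passed adjoins or overlaps an mRNA or an rRNA, and reads from such a neighbour cannot be told apart from reads of the tRNA. Several that did not pass adjoin one too, such as that between both rRNAs, with 1 count.

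The gene totals ran from 22515812 to 50445334 counts per library and the TMM factors from 0.727 to 1.15, the 2 WT libraries at 25 dpp having the lowest factors, 0.727 and 0.834. Markers of several cell types moved with the groups. At 25 dpp the summed level of 30 Sertoli cell markers was 12255 and 10457 CPM in KO and 3839 and 4809 CPM in WT, with 27 of 30 called higher in KO and 0 lower. Markers of pachytene to secondary spermatocytes (12 genes) summed to 719.9 and 1329 CPM in KO and 12073 and 9213 CPM in WT, and those of round spermatids (13 genes) to 74.3 and 124.6 CPM in KO and 3459 and 2022 CPM in WT. All 12 and all 13 were called lower in KO, as were all 11 elongating spermatid markers, of which Prm1, Prm2 and Tnp2 had no count in either KO library at 25 dpp. At this age 37.4% of all genes were called lower and 26.1% higher. Other germ cell lists were mixed or higher in KO at 25 dpp. Early meiotic prophase markers (15 genes) summed to 2656 and 3553 CPM in KO and 3831 and 3767 CPM in WT. Of these 4 were called lower and 3 higher in KO. Of 10 undifferentiated spermatogonia markers 6 were called higher and 1 lower. At 19 dpp the Sertoli sum was 14706 and 13216 CPM in KO and 8165 and 7440 CPM in WT, with 21 of 30 called higher in KO. Germ cell markers called lower in KO at 19 dpp were 12 of 15 of early meiotic prophase and 9 of 12 of pachytene to secondary spermatocytes. Of round and elongating spermatid markers 6 of 13 and 0 of 11 were lower. In these 4 lists 0 were higher, where 13.2% of all genes were lower and 8.80% higher. Every result below compares testes that differ in this way, and the part of cell type content in the results was not tested. In whole-testis RNA, fewer cells of a type and less RNA per cell cannot be told apart. Dnmt3a stood at 76.8 and 67.2 CPM in KO and 48.7 and 70.0 CPM in WT at 25 dpp. Its values at 19 dpp were 114 and 112 CPM in KO and 147 and 141 CPM in WT. This checks no label, since the part removed is not stated.

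The mean share of gene counts held by mt- genes was highest in KO and lowest in WT at 25 dpp. In KO at 25 dpp it was 2.64% (exact 95% interval 2.64 to 2.65) and 3.34% (3.33 to 3.34). In WT at 25 dpp it was 1.25% (1.24 to 1.25) and 1.63% (1.62 to 1.63). In KO at 19 dpp it was 2.42% (2.41 to 2.42) and 2.87% (2.87 to 2.88), and in WT at 19 dpp 2.66% (2.65 to 2.67) and 2.85% (2.84 to 2.85). The intervals cover counting error only and are narrower than the gap between the libraries of any group. Both WT libraries at 25 dpp thus lay below all 6 other libraries, which overlapped one another.

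Group means were 2.99% ± 0.489 in KO and 1.44% ± 0.268 in WT at 25 dpp, and 2.64% ± 0.324 in KO and 2.75% ± 0.134 in WT at 19 dpp (SD, n = 2 each). KO exceeded WT by 1.55 percentage points at 25 dpp, against a pooled replicate SD of 0.394. At 19 dpp KO minus WT was −0.11 points, within the pooled SD of 0.248. Between the ages, 25 minus 19 dpp was 0.345 points in KO (pooled SD 0.415) and −1.32 points in WT (pooled SD 0.212). No p is given for these sums, and 2 libraries against 2 could not reach an exact two-sided p below 0.333. The age comparison in WT and the KO comparison at 25 dpp share the WT libraries at 25 dpp, so they are not separate evidence. A share is also relative to total counts, a scale in which most genes shifted. There the median log2 fold change of all genes was 0.34 for KO over WT at 25 dpp and −0.51 for 25 over 19 dpp in WT. The medians of the 15 mRNAs and rRNAs were 1.00 and −0.93 in that scale, and 0.55 and −0.42 with TMM.

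Nearly all of the share was mRNA, which held between 98.1% and 98.8% of mt- counts in the group means. The mRNAs alone held 2.93% ± 0.494 in KO and 1.41% ± 0.266 in WT at 25 dpp. The rRNAs held 0.0550% ± 0.00487 in KO and 0.0235% ± 0.00248 in WT, and the tRNAs 7.00e-04% ± 1.72e-04 in KO and 4.29e-04% ± 2.88e-05 in WT at that age (SD, n = 2 each). A version restricted after seeing the data to mt-Rnr1, mt-Nd1, mt-Nd6 and mt-Cytb, which share no window with another annotated transcript, gave 0.706% ± 0.185 in KO and 0.353% ± 0.0670 in WT at 25 dpp. At 19 dpp it gave 0.694% ± 0.109 in KO and 0.691% ± 0.0590 in WT (SD, n = 2 each). WT at 25 dpp thus had the lowest mean in this set as well. mt-Atp8 shares no window either and was left out of the set, and mt-Cytb and mt-Nd6 have diverged copies, at 92.91% and 93.64% identity.

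**Figure D3:**
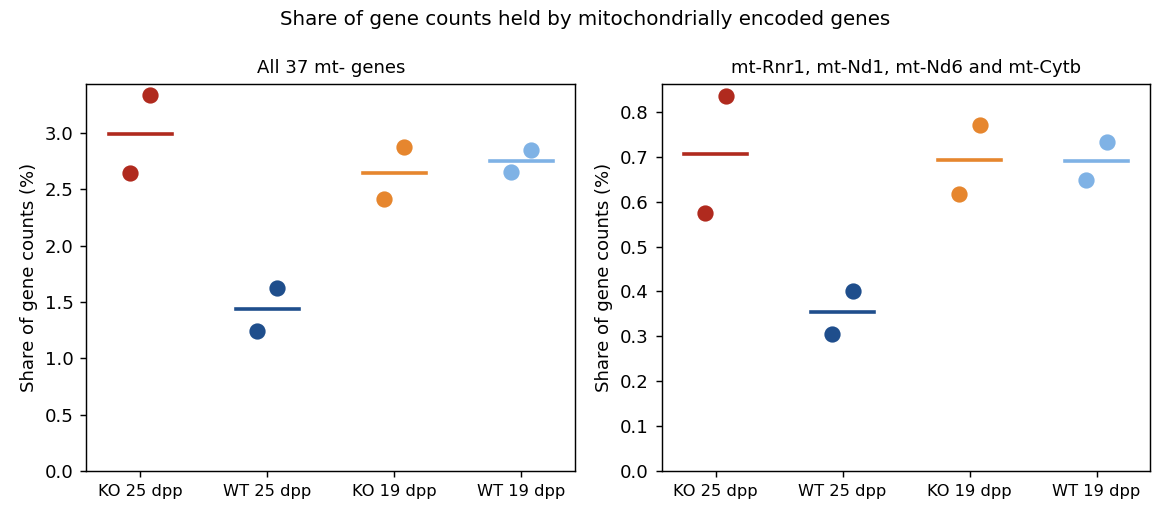
Percentage of all gene counts that fell on mt- genes in each library (points) with the mean of the 2 libraries of a group (line), for all 37 genes on the left and for mt-Rnr1, mt-Nd1, mt-Nd6 and mt-Cytb on the right. On the left the WT libraries at 25 dpp lie at 1.25% and 1.63% and the other 6 libraries between 2.42% and 3.34%. Shares are relative to total counts, a scale in which the median log2 fold change of all genes for KO over WT at 25 dpp is 0.34.

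At 25 dpp 6 of the 20 members tested were called higher in KO than in WT testis with TMM scaling. All 15 mRNAs and rRNAs had a positive TMM-scaled log2 fold change, from 0.04 to 1.11 with a median of 0.55, where the median of all 23353 genes tested was −0.12. With libraries scaled to the Sertoli marker sum instead, the direction turned, and the medians were −0.81 for these genes and −1.52 for all genes. By edgeR's quasi-likelihood test with Benjamini-Hochberg adjustment, 6 of 20 members were called higher and 0 lower. In this comparison 26.1% of all genes tested were called higher, 37.4% lower and 63.5% either way. The members' count called higher is near that background, and their counts called lower and either way are below it.

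Among the rRNAs, mt-Rnr1 had 199 and 155 CPM in KO and 93.2 and 96.4 CPM in WT at 25 dpp. Its log2 fold change was 0.90 (SE 0.142, edgeR adjusted p = 0.00134). mt-Rnr2 had 336 and 328 CPM in KO and 206 and 206 CPM in WT, a log2 fold change of 0.69 (SE 0.227, edgeR adjusted p = 0.0296). For both rRNAs each KO library lay above each WT library, and for mt-Rnr2 the libraries of a group nearly coincided. Such separation was common at 25 dpp, here and for the genes below. Over all genes the groups did not overlap in 84.6%, with KO above in 38.5% and below in 46.1%. Among the 20 members KO lay above in 11 and below in 1.

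Of the complex IV and ATP synthase transcripts, mt-Co1 and mt-Atp6 were called. mt-Co1 had 13462 and 14064 CPM in KO and 7727 and 8812 CPM in WT, a log2 fold change of 0.73 (SE 0.130, edgeR adjusted p = 0.00213), without overlap between the groups. mt-Atp6, the proton channel subunit of the ATP synthase, had 1.54 and 1.81 CPM in KO and 0.791 and 0.760 CPM in WT, a log2 fold change of 1.11 (SE 0.332, edgeR adjusted p = 0.0202). This is the difference of a small counted remainder of that mRNA, whose windows are almost all copied on chromosome 1, and reads of either copy could contribute. mt-Co2 (0.73, edgeR adjusted p = 0.124), mt-Co3 (0.66, 0.113) and mt-Atp8 (0.13, 0.821), all with counted levels under 3 CPM, did not pass the threshold.

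Complex I subunits were less uniform. mt-Nd1 had 2163 and 2937 CPM in KO and 1693 and 1882 CPM in WT, a log2 fold change of 0.51 (SE 0.195, edgeR adjusted p = 0.0495). mt-Nd5 had 1902 and 2972 CPM in KO and 1374 and 1571 CPM in WT, a log2 fold change of 0.73 (SE 0.211, edgeR adjusted p = 0.0174). In both genes the lower KO library still lay above the higher WT library, with a gap between the KO libraries wider than that to WT. The other 5 had log2 fold changes of 0.48 (mt-Nd3), 0.30 (mt-Nd4), 0.21 (mt-Nd2), 0.13 (mt-Nd4l) and 0.04 (mt-Nd6), with edgeR adjusted p from 0.175 to 0.891 and overlapping libraries. mt-Cytb of complex III had 2881 and 4718 CPM in KO and 2400 and 2795 CPM in WT, a log2 fold change of 0.55 (SE 0.245) whose edgeR adjusted p of 0.0838 missed the threshold.

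Leaving out each library in turn separated these calls. mt-Rnr1 and mt-Co1 were called higher in KO in 8 of 8 such fits, with edgeR adjusted p no higher than 0.0111 and 0.0135. mt-Nd5 was called in 7 and was lost without KO replicate 2 at 25 dpp (adjusted p = 0.107). mt-Rnr2 and mt-Atp6 were each called in 4, being lost without any of the 4 libraries at 25 dpp, and mt-Nd1 in 3. The number of members called was 2 without KO replicate 2 at 25 dpp and 3 without either WT library at 25 dpp, against 5 or 6 without any of the other 5. In each of these fits a smaller share of all genes was called higher than with every library kept, so a loss of calls is not particular to the members. KO replicate 2 had the higher CPM of the KO pair at 25 dpp in mt-Nd1, mt-Nd5 and mt-Cytb, and replicate 1 in both rRNAs.

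**Figure D4:**
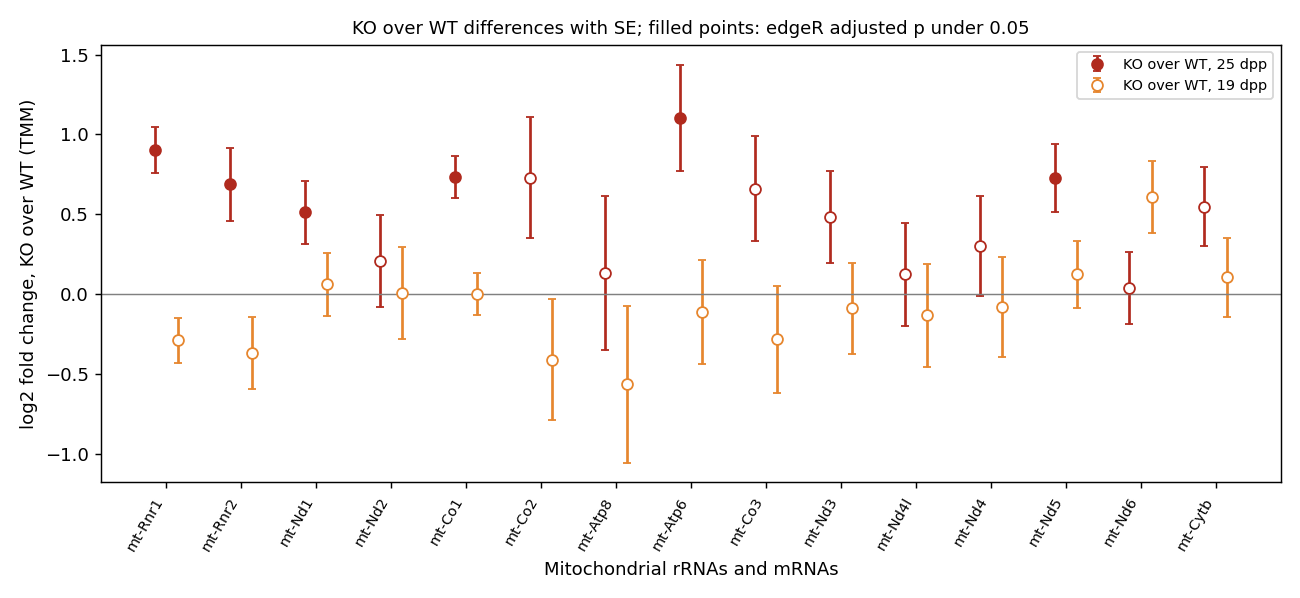
TMM-scaled log2 fold change of KO over WT for the 2 rRNAs and 13 mRNAs at 25 dpp (dark red, left point of each pair) and 19 dpp (orange, right point), with bars of 1 SE from edgeR. Filled points passed an adjusted p of 0.05: mt-Rnr1, mt-Rnr2, mt-Nd1, mt-Co1, mt-Atp6 and mt-Nd5 at 25 dpp and none at 19 dpp. All 15 values at 25 dpp lie above 0 under TMM, and with scaling to Sertoli markers their median is −0.81.

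At 19 dpp no member was called different between KO and WT. mt-Co1 had 10551 and 12001 CPM in KO and 11225 and 11278 CPM in WT, and mt-Cytb 3401 and 4066 CPM in KO and 3070 and 3870 CPM in WT, both with overlapping groups. In 7 of 20 members the groups did not overlap, where 66.4% of all genes did not. Both KO libraries lay below both WT libraries in mt-Rnr1 (−0.29), mt-Co2 (−0.41), mt-Co3 (−0.28), mt-Atp6 (−0.11) and mt-Atp8 (−0.56), and above them in mt-Nd6 and mt-Tt, while mt-Rnr2 (−0.37) overlapped. The median TMM-scaled log2 fold change of the 15 mRNAs and rRNAs was −0.09, against 0 for all genes, and −0.92 against −0.80 with scaling to Sertoli markers. The edgeR test called 0 of 20 members, where 22.0% of all genes tested were called, with 2 members at an unadjusted p under 0.05 and a lowest adjusted p of 0.0761. limma-voom called 0 and the DESeq2 Wald test called 1, where they called 21.3% and 35.4% of all genes. That gene was mt-Nd6, with 30.3 and 31.9 CPM in KO and 19.3 and 21.4 CPM in WT, a log2 fold change of 0.61 (SE 0.225, edgeR adjusted p = 0.0902, DESeq2 adjusted p = 0.0161). The other member under 0.05 unadjusted was mt-Tt, at 1.68 and 0.738 CPM in KO and 0.385 and 0.345 CPM in WT (named after its values were seen).

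With TMM scaling the KO effect itself was called different between the ages for both genes with the steadiest call at 25 dpp. Its value at 25 dpp minus that at 19 dpp was 1.19 (log2, SE 0.200, edgeR adjusted p = 0.0103) for mt-Rnr1 and 0.73 (SE 0.183, edgeR adjusted p = 0.0321) for mt-Co1. These were 2 higher and 0 lower of 20 members, where 7.68% of all genes were called higher, 11.4% lower and 19.1% either way. The members' count called higher is near the background, and that called either way is below it. mt-Rnr2 (1.05, SE 0.320, edgeR adjusted p = 0.0564) and mt-Atp6 (1.22, SE 0.465, edgeR adjusted p = 0.104) had values as large and did not pass. The call of mt-Rnr1 held in 7 of 8 fits with a library left out, failing without KO replicate 1 at 19 dpp (adjusted p = 0.0506), and that of mt-Co1 in 1 of 8, with adjusted p up to 0.131. With scaling to Sertoli markers 0 members were called, where 11.9% of all genes were, and the median over the 15 mRNAs and rRNAs was 0.07 in place of 0.60.

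At 25 over 19 dpp in KO testis both rRNAs were called higher and no mRNA was called. mt-Rnr1 had 199 and 155 CPM at 25 dpp and 106 and 102 CPM at 19 dpp, a log2 fold change of 0.77 (SE 0.142, edgeR adjusted p = 0.0133). mt-Rnr2 had 336 and 328 CPM at 25 dpp and 143 and 237 CPM at 19 dpp, a log2 fold change of 0.80 (SE 0.227, edgeR adjusted p = 0.0464), the libraries at 19 dpp lying far apart. These were the 2 members called higher, with 0 lower, where 10.2% of all genes were called higher, 8.87% lower and 19.1% either way. For the 20 members the count called higher is near that background, and the count called either way is below it. The 13 mRNAs had values from −0.27 (mt-Nd6) to 0.79 (mt-Co3, edgeR adjusted p = 0.137), the value of mt-Co3 lying between those of the rRNAs. In mt-Co1, mt-Co2, mt-Co3 and mt-Atp6 both libraries at 25 dpp lay above both at 19 dpp, as they did in 33.3% of all genes. mt-Co1 had 13462 and 14064 CPM at 25 dpp and 10551 and 12001 CPM at 19 dpp (0.29, edgeR adjusted p = 0.160). Both calls were lost without replicate 1 of KO at either age, and most calls over all genes were lost in those fits too. mt-Rnr1 lost its call without either KO library at 19 dpp or KO replicate 1 at 25 dpp (adjusted p up to 0.114), and mt-Rnr2 kept its call in 3 of 8.

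At 25 over 19 dpp in WT testis 2 of the 20 members tested were called lower with TMM scaling. Of the 15 mRNAs and rRNAs, 14 had a negative TMM-scaled log2 fold change of 25 over 19 dpp, the exception being mt-Nd6 (0.30), with a median of −0.42 against 0.01 for all genes. Scaled to Sertoli markers the median turned to 0.44, against 0.87 for all genes. The edgeR test called 2 lower and 0 higher, where 25.4% of all genes were called lower, 34.9% higher and 60.3% either way, so the members' count lay below the background. mt-Co1 had 7727 and 8812 CPM at 25 dpp and 11225 and 11278 CPM at 19 dpp, a log2 fold change of −0.44 (SE 0.130, edgeR adjusted p = 0.0195). mt-Rnr1 had 93.2 and 96.4 CPM at 25 dpp and 125 and 129 CPM at 19 dpp, a log2 fold change of −0.42 (SE 0.141, edgeR adjusted p = 0.0323). mt-Nd5 (−0.56), mt-Nd1 (−0.52) and mt-Atp6 (−0.86) just missed the threshold with edgeR adjusted p of 0.0502, 0.0504 and 0.0543. The number called lower was 0 with DESeq2 size factors, 12 with scaling to total gene counts and 5 with a replicate block, where 20.5%, 41.6% and 24.9% of all genes were called lower. It was 0 without either WT library at 19 dpp or WT replicate 1 at 25 dpp, 1 without WT replicate 2 at 25 dpp, and 5 without either KO library at 25 dpp.

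Scaling each library to its own mt- total asks whether members changed relative to each other. Few members were called in that scale, which does not show that their makeup stayed the same. mt-Co1 alone made up 43.3% to 55.6% of the total, which damps its own change and moves the others the opposite way. The fit held all genes, and its SEs differed from those with TMM in both directions. For KO over WT at 25 dpp the SE was 0.210 against 0.130 for mt-Co1, and 0.226 against 0.288 for mt-Nd2. Of 20 members 0 were called for KO over WT at 19 dpp (edgeR, 2 at unadjusted p under 0.05, limma-voom 0) and 0 for 25 over 19 dpp in KO (edgeR, 3 at unadjusted p under 0.05, limma-voom 0), where 15% and 14.3% of all genes were called. For KO over WT at 25 dpp only mt-Tm was called, lower by a log2 fold change of −1.85 (SE 0.695, edgeR adjusted p = 0.0436), where 45.5% of all genes were lower in this scale. mt-Tm had 0.378 and 1.38 CPM in KO and 2.15 and 1.78 CPM in WT at 25 dpp, a low and scattered signal in KO, and the call was lost with a filter of 5 CPM, which removes this tRNA, and without KO replicate 1 or WT replicate 1 at 25 dpp. mt-Co1 made up 55.6% and 45.0% of mt- counts in KO and 45.1% and 45.2% in WT at 25 dpp, and 46.3% and 44.3% in KO and 48.4% and 43.3% in WT at 19 dpp. KO replicate 1 at 25 dpp thus stood apart in makeup, with more mt-Co1 and rRNA and less mt-Cytb (11.9% of mt- counts, against 13.2% to 15.1% in the other 7 libraries).

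Relative to the mt- total, mt-Nd6, the light-strand mRNA, was the only mRNA called in any comparison. Within an age other mRNAs differed about as much between KO and WT. These included mt-Nd4l (log2 −0.51) and mt-Atp6 (0.51) at 25 dpp and mt-Atp8 (−0.60) at 19 dpp. In this scale KO lay above WT without overlap in 3 of 20 members and below in 7 at 25 dpp, and in 4 and 5 at 19 dpp. The share of all genes without overlap was not computed in this scale. With TMM it was 84.6% at 25 dpp and 66.4% at 19 dpp, so separation of the groups was common. mt-Nd6 made up 0.0878% and 0.0970% of mt- counts in KO and 0.126% and 0.147% in WT at 25 dpp, and 0.133% and 0.118% in KO and 0.0834% and 0.0822% in WT at 19 dpp. KO lay below WT at 25 dpp and above it at 19 dpp, with no overlap at either age. Relative to the mt- total its log2 fold change of KO over WT was −0.56 (SE 0.241, edgeR adjusted p = 0.0694) at 25 dpp and 0.60 (SE 0.241, edgeR adjusted p = 0.122) at 19 dpp. Neither passed alone, and the difference between them did, at −1.16 (SE 0.340, edgeR adjusted p = 0.0343), the 1 member called lower of 20, where 18.0% of all genes were called lower in this scale. In WT it was higher at 25 than at 19 dpp relative to the mt- total (0.72, SE 0.241, edgeR adjusted p = 0.0297, where 39.3% of all genes were called higher). Both calls depended on the libraries kept: the difference between ages was called in 1 of 8 fits with a library left out, with adjusted p up to 0.132, and the WT value in 4 of 8, with adjusted p up to 0.174. mt-Nd6 overlaps mt-Nd5 by 14 bases on the opposite strand, and per base it stood at between 0.0325 and 0.0641 of mt-Nd5. The strand setting of the counting is not given in the sources used here, so a part of mt-Nd6 counts could be reads of mt-Nd5 or of other heavy-strand RNA.

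Nuclear subunits of the same complexes were mostly lower in KO at 25 dpp with TMM scaling. Of 76 nuclear subunits of complexes I, III and IV and the ATP synthase that were tested, 53 were lower and 6 higher in KO than in WT with TMM scaling, where 37.4% of all genes were lower and 26.1% higher. Their median log2 fold change was −0.68, against −0.12 for all genes and 0.55 for the mitochondrial mRNAs and rRNAs. With scaling to total counts 27 were lower and 11 higher, where 30.4% and 38.5% of all genes were, with medians of −0.21 for the subunits and 0.34 for all genes. With scaling to Sertoli markers 74 were lower and 0 higher, where 68.8% and 1.17% of all genes were. In that scale the mt- genes were lower too, with 6 called lower, 0 higher and a median of −0.81, so both sets had the same sign. Fits with a library left out called 46 to 57 of the 76.

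The counts by complex stand against the same 37.4% lower and 26.1% higher over all genes. In complex I, 28 of 36 nuclear subunits were lower and 2 higher in KO at 25 dpp. The accessory subunit Ndufa12 had 26.1 and 30.9 CPM in KO and 127 and 97.2 CPM in WT (log2 −1.97, SE 0.185, edgeR adjusted p = 3.21e-04), and the core subunit Ndufs1 118 and 133 CPM in KO and 179 and 180 CPM in WT (−0.52, SE 0.127, edgeR adjusted p = 0.00833). Complex III had 7 of 9 lower and 0 higher, among them Uqcrc1, a core subunit, with 121 and 130 CPM in KO and 385 and 325 CPM in WT (−1.504, SE 0.138, edgeR adjusted p = 3.15e-04). Complex IV had 10 of 16 lower and 3 higher, with Cox4i1 at 190 and 181 CPM in KO and 382 and 360 CPM in WT (−0.999, SE 0.123, edgeR adjusted p = 5.89e-04). The ATP synthase had 8 of 15 lower and 1 higher. Its catalytic subunits Atp5b and Atp5a1 had log2 fold changes of −0.57 (SE 0.124, edgeR adjusted p = 0.00522) and −0.10 (SE 0.112, edgeR adjusted p = 0.438). Of the 4 subunits of complex II, which has no mitochondrial gene, 2 were lower and 0 higher. With total counts, where 30.4% of all genes were lower and 38.5% higher, 13 were lower and 3 higher in complex I, 4 and 1 in complex III, 6 and 5 in complex IV, 4 and 2 in the ATP synthase, and 0 and 0 in complex II.

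Summed over a complex, the counts of mitochondrial mRNAs per count of nuclear subunits put the shift in a number that does not depend on scaling between libraries. For complex I it was 5.51 ± 1.57 in KO and 2.39 ± 0.336 in WT at 25 dpp, and 5.95 ± 0.684 in KO and 4.99 ± 0.209 in WT at 19 dpp (SD, n = 2 each). For complex III it was 5.43 ± 1.63 in KO and 1.96 ± 0.345 in WT at 25 dpp, and 6.11 ± 0.410 in KO and 4.55 ± 0.185 in WT at 19 dpp. For complex IV it was 12.9 ± 0.124 in KO and 3.32 ± 0.541 in WT at 25 dpp, and 11.97 ± 0.377 in KO and 9.15 ± 1.36 in WT at 19 dpp. The mitochondrial sum of complex IV is nearly all mt-Co1, since mt-Co2 and mt-Co3 were hardly counted. In KO replicate 1 at 25 dpp mt-Co1 held 13462 of 13466 CPM. In all 3 complexes both KO libraries lay above both WT libraries at each age, and the 2 WT libraries at 25 dpp were lowest of all 8. No ratio is given for the ATP synthase, whose mitochondrial mRNAs were hardly counted.

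**Figure D5:**
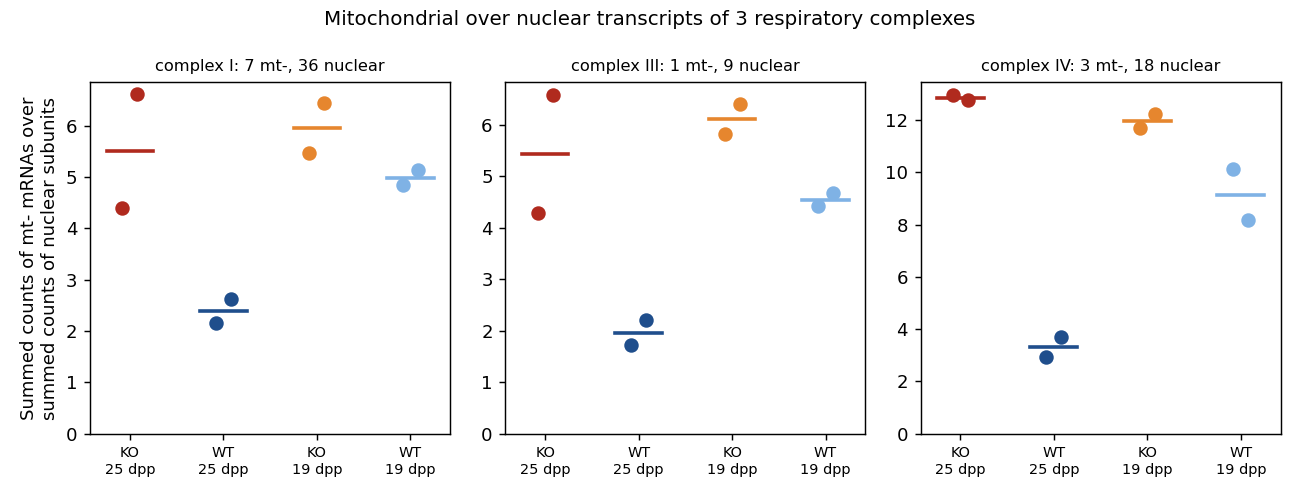
Summed counts of the mitochondrial mRNAs of complexes I, III and IV over the summed counts of their nuclear subunits in each library (points) with group means (lines), each axis starting at 0. The number of mitochondrial and nuclear genes is given above each panel, and WT at 25 dpp is lowest in all 3, at means of 2.39, 1.96 and 3.32, below KO at 25 dpp at 5.51, 5.43 and 12.9. For complex IV the mitochondrial sum is nearly all mt-Co1.

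At 19 dpp the nuclear subunits differed less, with 11 of 76 lower and 3 higher in KO, where 13.2% of all genes were lower and 8.80% higher. Fewer subunits were called when a KO library of either age or WT replicate 2 at 19 dpp was left out. The same held for the calls over all genes, so this loss is not particular to the subunits. Lower ones included testis forms of complex IV subunits, Cox8c with 2.30 and 3.94 CPM in KO and 50.3 and 129 CPM in WT (log2 −4.82, SE 0.569, edgeR adjusted p = 0.00732), and Cox6b2 with 6.12 and 9.85 CPM in KO and 51.2 and 104 CPM in WT (−3.27, SE 0.393, edgeR adjusted p = 0.00732). The complex I subunit Ndufb11 was higher, at 54.3 and 49.9 CPM in KO and 29.98 and 33.3 CPM in WT (0.72, SE 0.148, edgeR adjusted p = 0.0152). At 25 over 19 dpp in WT, 47 of the 76 were higher and 7 lower (34.9% and 25.4% of all genes), with a median log2 fold change of 0.56 against 0.01 for all genes. Scaled to total counts, 16 were higher and 19 lower (27.0% and 41.6% of all genes), with a median of 0.03 against −0.51 for all genes. Without WT replicate 1 at 19 dpp fewer were called, as over all genes. At 25 over 19 dpp in KO 6 were higher and 4 lower (10.2% and 8.87% of all genes) with a median of 0.08. Without KO replicate 1 at 19 dpp these calls were lost, as were nearly all calls over all genes.

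Relative to the mt- total, 64 of the 76 nuclear subunits were lower and 0 higher in KO than in WT at 25 dpp, where 45.5% of all genes were lower and 7.47% higher. Their median was −1.26 against −0.71 for all genes. At 19 dpp 5 were lower and 0 higher (11% and 4% of all genes), and 25 over 19 dpp in WT gave 53 higher and 0 lower (39.3% and 6.30% of all genes).

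The nuclear genes that maintain and express mitochondrial DNA did not all go one way at 25 dpp. Of 14 genes of mitochondrial DNA replication and the nucleoid, 5 were higher and 2 lower in KO, where 26.1% of all genes were higher and 37.4% lower. With total counts 8 were higher and 1 lower, against 38.5% and 30.4% of all genes. Lig3, the DNA ligase of mitochondria, had 127 and 160 CPM in KO and 497 and 411 CPM in WT (log2 −1.66, SE 0.183, edgeR adjusted p = 4.22e-04), and Polg, the mitochondrial DNA polymerase, 169 and 136 CPM in KO and 238 and 237 CPM in WT (−0.64, SE 0.143, edgeR adjusted p = 0.00562). Primpol, a primase-polymerase, was higher, at 39.1 and 52.9 CPM in KO and 15.98 and 16.3 CPM in WT (1.51, SE 0.189, edgeR adjusted p = 6.17e-04). Of 39 genes of mitochondrial transcription and RNA processing, 15 were lower and 6 higher, a share lower that is near the 37.4% of all genes, and with total counts 10 were lower and 12 higher. Mterf3, a regulator of mitochondrial transcription, was lower (−1.15, SE 0.165, edgeR adjusted p = 9.63e-04), and Lrpprc, which stabilises mitochondrial mRNAs, was higher, at 124 and 137 CPM in KO and 98.5 and 107 CPM in WT (0.35, SE 0.118, edgeR adjusted p = 0.0315). At 19 dpp Polrmt, the mitochondrial RNA polymerase, was lower in KO, at 33.6 and 38.5 CPM against 49.8 and 58.2 CPM in WT (−0.58, SE 0.154, edgeR adjusted p = 0.0331).

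Genes of mitochondrial translation were counted in a pair of lists. Of 76 mitochondrial ribosomal proteins, 35 were lower and 6 higher in KO, where 37.4% of all genes were lower and 26.1% higher. With total counts the balance turned, with 14 lower and 21 higher (30.4% and 38.5% of all genes). Mrpl39 stood at 36.98 and 44.9 CPM in KO and 187 and 145 CPM in WT (log2 −2.02, SE 0.193, edgeR adjusted p = 3.28e-04). Of 17 mitochondrial tRNA synthetases 5 were higher and 2 lower, a share higher that is near the 26.1% of all genes, and with total counts 11 were higher and 2 lower. Iars2 (0.51, SE 0.144, edgeR adjusted p = 0.0158) was among the higher and Fars2 (−1.49, SE 0.177, edgeR adjusted p = 5.19e-04) among the lower. The outer membrane proteins Tomm22, of the import pore, and Vdac2, a channel, were lower in KO, by log2 values of −1.99 (SE 0.147) and −1.69 (SE 0.151), with edgeR adjusted p of 3.08e-04 and 3.15e-04. Over all lists 121 of 255 nuclear genes were lower and 38 higher in KO at 25 dpp, with a median of −0.35, where 37.4% and 26.1% of all genes were. With scaling to total counts this became 59 lower and 78 higher, against 30.4% and 38.5% of all genes. With scaling to Sertoli markers it became 240 lower and 0 higher, against 68.8% and 1.17%, so the counts over the lists moved with those over all genes.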

How the data were processed

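The deposited values are raw counts per gene, 1 file per library; per the submitters' processing notes the authors aligned to mm10 with STAR 2.7.0a and counted with featureCounts 1.5.1, from stranded mRNA libraries per the labels' protocols. The annotation, the strand setting and the treatment of reads with several alignments are not given in the sources used here. The 1205 repeat entries were kept out of gene totals and tests. All 54087 genes entered the library sizes. edgeR 4.0.16 (R 4.3.3) was run with TMM scaling, filterByExpr by group (23353 genes kept) and a quasi-likelihood fit of 4 group means with 4 residual degrees of freedom. P-values of the 5 contrasts were adjusted by Benjamini-Hochberg over all genes at 0.05. A second fit scaled libraries to their mt- total. No p was computed for sums over the members.

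Alternatives were DESeq2 1.42.0 size factors and Wald test, total counts, a Sertoli marker sum, mt- genes left out of scaling, no filter, at least 5 CPM in 2 libraries, limma-voom (limma 3.58.1), only the libraries compared, a replicate block, and each library left out. The fits were tested on simulated data. The members and gene lists were chosen with earlier results of these data known. All mt- genes were accounted for. The rule named mRNAs, rRNAs, tRNAs averaging at least 1 CPM, Dnmt3a and, per nuclear list and contrast, up to 4 genes, 2 by p and 2 by level, of which a selection was printed after the values were seen. Nothing says that the libraries of a group came from separate animals, so p-values measure the spread between libraries, which may be technical. Coordinates are 1-based on GRCm38. Genes were matched to GENCODE M21 by symbol, all 37 with success. Figures were drawn with matplotlib 3.10.9 (Python 3.11.15).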

Additional observations from a re-analysis of the deposited data

Results flagged for a closer look

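The KO effect differed between 25 and 19 dpp, by the test of the difference itself, for 3 values, where 19.1% of all genes were called with TMM scaling and 19.5% relative to the mt- total. For mt-Rnr1 the effect at 25 dpp minus that at 19 dpp was 1.19 on the log2 scale (SE 0.200, edgeR adjusted p = 0.0103), with the KO libraries above the WT libraries at 25 dpp and below them at 19 dpp, and the call held in 7 of 8 fits with a library left out. For mt-Co1 it was 0.73 (SE 0.183, edgeR adjusted p = 0.0321), with the KO libraries above WT at 25 dpp and overlapping WT at 19 dpp, and the call held in 1 of 8. With scaling to Sertoli markers neither was called (0.62 and 0.18). For mt-Nd6 relative to the mt- total it was −1.16 (SE 0.340, edgeR adjusted p = 0.0343), with the KO libraries below WT at 25 dpp and above WT at 19 dpp, and this call also held in 1 of 8. Sertoli, spermatocyte and spermatid markers differed between the groups at the same time, and their part in these values was not tested.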

How the results depend on the processing

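Scaling decided directions. Relative to TMM, the Sertoli marker sum moved the median log2 fold change of all genes by −1.40 for KO over WT at 25 dpp, −0.80 at 19 dpp, 0.29 for 25 over 19 dpp in KO, 0.86 in WT and −0.56 for the difference of the KO effects. Total counts moved it by 0.46 (KO over WT at 25 dpp), −0.52 (25 over 19 dpp in WT) and 0.55 (difference), and DESeq2 size factors by −0.11 and 0.14 (KO over WT at 25 dpp and 25 over 19 dpp in WT). Under the Sertoli sum the sign of the log2 fold change turned in 15 of 15 mRNAs and rRNAs for KO over WT at 25 dpp, 6 at 19 dpp, 14 for 25 over 19 dpp in WT, 4 in KO, and 5 for the difference. Those that turned and were called under TMM or the Sertoli sum were, for KO over WT at 25 dpp, mt-Rnr1 −0.51, mt-Rnr2 −0.72, mt-Nd1 −0.86, mt-Nd2 −1.15, mt-Co1 −0.65, mt-Atp6 −0.29, mt-Nd4l −1.24, mt-Nd5 −0.64 and mt-Nd6 −1.32, at 19 dpp mt-Co1 −0.83, and for 25 over 19 dpp in WT mt-Rnr1 0.44 and mt-Co1 0.41. The causes of changes below were not tested, except that a fit without a library has fewer samples. The share of all genes called changed in such fits too.

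For mt- genes called, KO over WT at 25 dpp (6 as reported) gave 11 higher with total counts (38.5% of all genes), 6 lower with the Sertoli sum (68.8%) and 2 to 6 with a library left out. KO over WT at 19 dpp (0) gave 4 lower with the Sertoli sum (41.3% of all genes), 1 with the DESeq2 Wald test, 1 with only the libraries compared and 0 to 1 with a library left out. For 25 over 19 dpp in KO (2) the Sertoli sum gave 1 higher (8.11% of all genes) and left-out libraries 0 to 2. For 25 over 19 dpp in WT (2) the values were 0 with DESeq2 size factors, 12 lower with total counts (41.6% of all genes), 1 higher with the Sertoli sum (49.9%), 4 each with no filter, limma-voom and only the libraries compared, 5 with the replicate block, and 0 to 5 with a library left out. The difference of KO effects (2) gave 8 higher with total counts (23.8% of all genes), 0 with the Sertoli sum (11.9%) and 0 to 2 with a library left out.

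Relative to the mt- total, KO over WT at 25 dpp (1) gave 0 with the 5 CPM filter, 2 with the replicate block and 0 to 3 with a library left out; at 19 dpp (0) left-out libraries gave 0 to 1. For 25 over 19 dpp in KO (0) no filter gave 1 and left-out libraries 0 to 1, in WT (1) no filter gave 0 and left-out libraries 0 to 1, and for the difference (1) no filter gave 0 and left-out libraries 0 to 1.

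The share restricted to mt-Rnr1, mt-Nd1, mt-Nd6 and mt-Cytb, added after seeing the data, differed by 0.353 points for KO over WT at 25 dpp, −0.34 for 25 over 19 dpp in WT and 0.350 for the difference, smaller as it holds fewer genes. With a library left out the difference of the share ran from 1.32 to 2.01 points, and KO minus WT at 19 dpp from −0.34 to 0.120.

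Nuclear list members called were 38, 216 and 0 to 36 for KO over WT at 19 dpp (35 as reported) with total counts, the Sertoli sum and a library left out. In that order the numbers were 137, 240 and 113 to 153 at 25 dpp (159), and 138, 193 and 96 to 140 for 25 over 19 dpp in WT (150), where DESeq2 size factors gave 146 with another split (123 higher, 23 lower). They were 72, 32 and 8 to 66 for the difference (55), with 74 by DESeq2 size factors, while 25 over 19 dpp in KO (24) gave 10 with the Sertoli sum and 0 to 27 with a library left out. For the 76 subunits the same order gave 19, 66 and 0 to 15 for KO over WT at 19 dpp (14), 38 and 74 at 25 dpp (59), 8, 3 and 0 to 11 for 25 over 19 dpp in KO (10), 35, 67 and 34 to 52 in WT (54), with 56 by DESeq2 size factors, and 12, 13 and 3 to 21 for the difference (18), with 28 by DESeq2 size factors. Leaving out libraries for the nuclear genes was added after seeing the data. The lists held 255 tested genes. Over all genes, TMM, total counts and the Sertoli sum called 22.0%, 20.1% and 41.6% for KO over WT at 19 dpp. At 25 dpp the shares became 63.5%, 68.9% and 69.9%. For 25 over 19 dpp they became 60.3%, 68.6% and 52.0% (WT) and 19.1%, 18.1% and 10.9% (KO). The difference gave 19.1%, 32.2% and 11.9%. DESeq2 size factors called 57.9% for 25 over 19 dpp in WT and 18.5% for the difference. These shares also changed with a library left out.

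Replicate numbers were not taken to pair libraries: deviations of replicate 1 correlated between groups from −0.0877 to 0.361. The replicate block changed the number of mt- genes called by more than 1.5 times in the 2 cases above. Libraries of a group were not copies of each other (chi-square per degree of freedom 14.6 to 74.3). Counting depth limits the tRNAs and mt-Co2, mt-Co3, mt-Atp6 and mt-Atp8, with 86 to 382 counts for the mRNAs over 8 libraries.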
